A study of Mus musculus with 32 samples.

Results

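The enzymes and regulators that handle reactive oxygen species are described here through 10 genes, chosen by symbol from the 22850 genes of the table: *Sod1*, *Sod2*, *Cat*, *Gpx1*, *Gpx3*, *Gpx4*, *Prdx1*, *Txnip*, *Nqo1*, and *Gclc*. Each was present once, and each passed the filter on low values in every comparison. Expression was measured by RNA-sequencing in 3 cell types sorted from dispersed mouse islets, namely β cells, ECs (endothelial cells), and MΦs (macrophages). All mice, No Dox controls included, carried MIP-GFP (GFP under the mouse insulin 1 promoter) together with the βVEGF-A transgenes, RIP-rtTA (the doxycycline-dependent activator under the rat insulin promoter, which limits it to β cells) and TetO-VEGF-A (human VEGF-A under a promoter that the activator switches on). Doxycycline (Dox) was given in the drinking water, and the time points were before treatment (No Dox), after 1 week of Dox (1wk Dox), and 1 week after its withdrawal (1wk WD). Samples were pools of islets from several mice, which were adult when experiments began. GFP+ cells that were CD31- and CD11b- were taken as β cells, CD31+ cells as ECs, and CD11b+ cells as MΦs. Of the 32 samples, 12 were No Dox (4 of each cell type), 1wk Dox had 5 of β cells, 1 of ECs, and 2 of MΦs, and 1wk WD had 3 of β cells, 5 of ECs, and 4 of MΦs. The labels call the samples of a group replicates. In these bulk samples, fewer cells of a type and less RNA per cell cannot be told apart.

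Cells remove reactive oxygen species in steps. Superoxide dismutases turn superoxide into hydrogen peroxide, and catalase, glutathione peroxidases, and peroxiredoxins turn peroxide into water. The glutathione peroxidases and peroxiredoxins, but not catalase, draw on glutathione and thioredoxin as electron donors. The transcription factor NRF2 (*Nfe2l2*) switches on many of these genes through antioxidant response elements, among them *Nqo1*, a quinone reductase, and *Gclc*, the catalytic subunit of the enzyme that limits glutathione synthesis. *Txnip*, an α-arrestin that binds and inhibits thioredoxin, is switched on by glucose through carbohydrate response elements and is known in β cells for promoting their death when glucose is high. Rodent β cells are known for low expression of catalase and of glutathione peroxidase 1, while MΦs make reactive oxygen species themselves with the NADPH oxidase.

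Values are scores, which are normalized expression values that the authors deposited as whole numbers down to 1. They are not stated to be per length, so levels are compared between samples and not between genes. Comparisons used limma on log2(score + 1), and a gene was counted as changed at a fold change of 2 or more with a Benjamini-Hochberg adjusted p under 0.05 over all genes tested. The plot of the scores by sample shows both kinds of comparison. Between cell types at No Dox, from 4 to 6 of the 10 genes passed the test. Between time points, *Prdx1* and *Gpx4* alone did, both higher in MΦs at 1wk Dox.

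**Figure D1:**
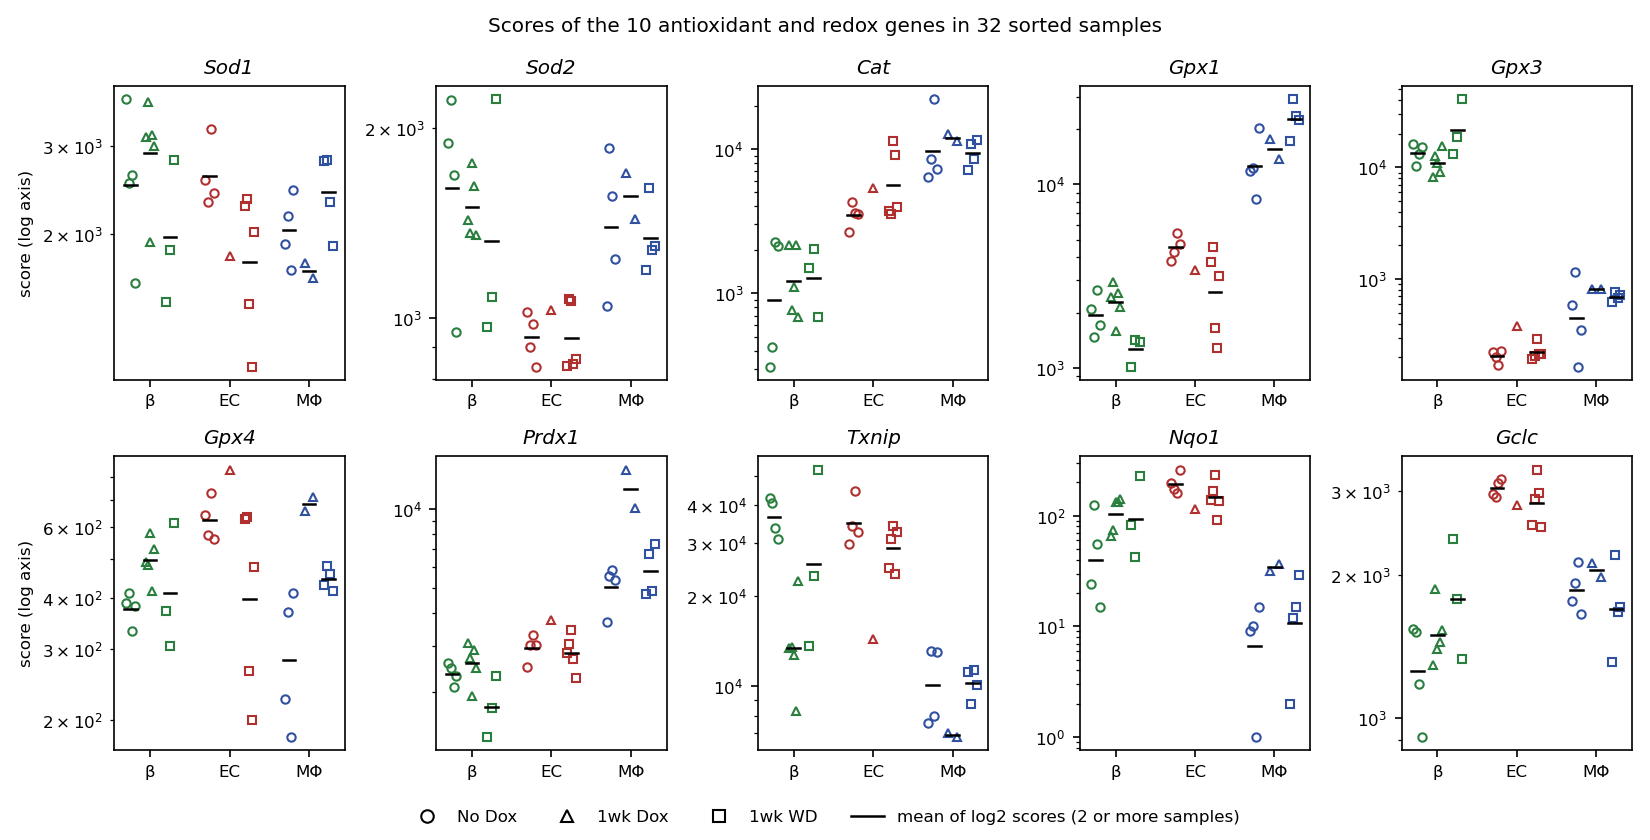
Score (log axis) of each of the 10 genes in the 32 samples, by cell type on the horizontal axis, with No Dox as circles, 1wk Dox as triangles, 1wk WD as squares, and the mean of log2 scores as a bar for groups of 2 or more samples. *Gpx3* was at least 8174 in every β cell sample and at most 1154 in every other sample, and both 1wk Dox MΦ samples had higher *Prdx1* scores than any other of the 32.

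Each set of cell type markers had its highest sums in its own type. At No Dox, summed scores of 8 β cell markers were 581741 to 8299116 in β cells, 408 to 2093 in ECs, and 1864 to 43850 in MΦs. Those of 8 EC markers were 412679 to 449353 in ECs, 1435 to 6443 in β cells, and 1376 to 1821 in MΦs. Those of 8 MΦ markers were 256939 to 345024 in MΦs, 606 to 7147 in β cells, and 5671 to 6514 in ECs. Some samples stood apart. Summed scores of 6 acinar markers were 601243 and 26027 in No Dox β cell replicates 1 and 2 but 10178578 and 7930380 in replicates 3 and 4. Those of 6 stromal markers were 224 and 100 in the former and 56476 and 163248 in the latter. In No Dox MΦ replicate 2 the acinar sum was 9849679. The medians of genes with GC-rich and GC-poor transcripts (the highest and lowest 20% by GC content), each taken as deviations from the median sample of the cell type on the log2 scale, differed by -0.77 and -0.39 in 1wk WD EC replicates 4 and 3, and lay between -0.05 and 0.19 in the other 8 ECs. This difference was -0.69 in No Dox MΦ replicate 3, and between -0.10 and 0.155 in the other 9 MΦs, and it was -0.399 in No Dox β cell replicate 2, and between -0.09 and 0.29 in the other 11 β cell samples.

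At No Dox the 10 genes separated the cell types in different directions. *Cat* and *Gpx1* were lowest in β cells and highest in MΦs, *Gpx3* was highest in β cells, *Txnip* was lowest in MΦs, and *Nqo1* and *Gclc* were highest in ECs. Of the 10 genes, 5 passed the test between β cells and ECs, where 37.7% of all 16380 genes tested did, 6 between β cells and MΦs, where 43.2% did, and 4 between ECs and MΦs, where 33.5% did. Groups did not overlap for 6, 6, and 8 of the 10 genes, against 48.8%, 43.9%, and 49.8% of all genes. With 10 genes, these shares were of the order of those of all genes.

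The superoxide dismutases differed least. *Sod1* (chr16:90220987-90226567 in mm9, plus strand), the cytosolic copper-zinc enzyme, ranged from 1599 to 3719 in β cells, from 2317 to 3247 in ECs, and from 1697 to 2451 in MΦs, and passed no comparison of cell types. *Sod2* (chr17:13200705-13210985, plus strand), the mitochondrial manganese enzyme, scored 1892, 2216, 1684, and 950 in β cells, 1021, 900, 979, and 838 in ECs, and 1046, 1862, 1564, and 1241 in MΦs. All 4 ECs were below all 4 MΦs, and β cell replicate 4 lay within the EC range. The log2 difference of β cells from ECs was 0.79 (SE 0.26, limma adjusted p = 0.024), which is under the fold change of 2.

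Catalase, encoded by *Cat* (chr2:103294006-103325317, minus strand), breaks down hydrogen peroxide in peroxisomes. Its score was 310, 422, 2278, and 2118 in β cells, 2645, 4277, 3615, and 3543 in ECs, and 6383, 8563, 22086, and 7298 in MΦs. The 3 groups did not overlap, with β cells lowest and MΦs highest. β cells were 3.89-fold below ECs (log2 difference -1.96, SE 0.63, adjusted p = 0.0227) and 10.9-fold below MΦs (-3.44, SE 0.63, adjusted p = 0.00068), while ECs and MΦs were not separated by the test (-1.48, adjusted p = 0.079). In 5 of 23 alternative fits *Cat* did pass between ECs and MΦs (adjusted p from 0.00351 to 0.21 over all of them). The 2 lower β cell values belonged to replicates 1 and 2, whose acinar and stromal sums were low, and the 2 higher ones to replicates 3 and 4. With replicates 3 and 4 left out the log2 difference of *Cat* from ECs was -3.26 (adjusted p = 7.51e-05), and with replicates 1 and 2 left out it was -0.66 (adjusted p = 0.215). The part of other cells in the *Cat* score of β cells was not tested.

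The glutathione peroxidases ran in different directions. *Gpx1* (chr9:108241607-108242671, plus strand), the abundant cytosolic form, scored 2100, 1473, 2653, and 1715 in β cells, 3809, 4295, 5469, and 4728 in ECs, and 11825, 12346, 8295, and 20344 in MΦs. The groups again did not overlap and had the same order as for *Cat*. β cells were 2.34-fold below ECs (log2 -1.23, SE 0.26, adjusted p = 0.00213) and 6.47-fold below MΦs (-2.69, SE 0.26, adjusted p = 6.19e-06), and ECs were 2.76-fold below MΦs (-1.47, SE 0.26, adjusted p = 0.000626).

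*Gpx3* (chr11:54715955-54723879, plus strand), the secreted form, stood the other way round. It scored 16105, 10384, 13084, and 15114 in β cells, 222, 201, 171, and 226 in ECs, and 585, 1154, 165, and 352 in MΦs. The lowest β cell value was above the highest value of either other type. β cells were 65.9-fold above ECs (log2 6.04, SE 0.45, adjusted p = 1.23e-06) and 30.2-fold above MΦs (4.92, SE 0.45, adjusted p = 4.48e-06). *Gpx4* (chr10:79509911-79519184, plus strand), which reduces lipid peroxides in membranes, scored 388, 411, 331, and 382 in β cells, 644, 574, 729, and 561 in ECs, and 225, 370, 181, and 413 in MΦs. ECs were above all other samples, and 2.22-fold above MΦs (log2 1.15, SE 0.27, adjusted p = 0.0042). Without No Dox MΦ replicate 3, in which GC-rich transcripts were low, that difference of *Gpx4* was 0.94, under the fold change of 2.

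*Prdx1* (chr4:116358149-116373427, plus strand), a peroxiredoxin that uses thioredoxin, scored 2573, 2459, 2081, and 2294 in β cells, 2486, 3027, 3292, and 3011 in ECs, and 3683, 5530, 5827, and 5347 in MΦs. MΦs were above every sample of the other types, 2.14-fold above β cells (log2 difference of β cells -1.10, SE 0.16, adjusted p = 0.000121) and 1.71-fold above ECs (-0.77, SE 0.16, adjusted p = 0.00178), the latter under the fold change of 2. The difference of *Prdx1* between β cells and MΦs was also under it with quantile normalization (-0.90) and with β cell replicates 3 and 4 left out (-0.9964). *Txnip* (chr3:96361880-96365806, plus strand) scored 42239, 40857, 33577, and 30855 in β cells, 29703, 34193, 44759, and 32523 in ECs, and 7574, 13133, 7993, and 13026 in MΦs. β cells and ECs overlapped, and both lay above all MΦs, 3.62-fold (log2 1.86, SE 0.22, adjusted p = 3e-05) and 3.46-fold (1.79, SE 0.22, adjusted p = 4.02e-05).

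*Nqo1* (chr8:109912125-109927106, minus strand) came down to the lowest score of the table in an MΦ sample. It scored 24, 126, 56, and 15 in β cells, 196, 174, 160, and 260 in ECs, and 9, 10, 1, and 15 in MΦs. ECs were above all others, 4.73-fold above β cells (log2 difference of β cells -2.24, SE 0.76, adjusted p = 0.0288) and 25.3-fold above MΦs (4.66, SE 0.76, adjusted p = 0.000338). β cells and MΦs overlapped, with β cells 5.36-fold higher (2.42, SE 0.76, adjusted p = 0.0178), a call lost in 2 of 22 alternative fits. The call of *Nqo1* between β cells and ECs was lost in 8 of 22 alternative fits, among them those without any 1 of the 4 ECs or without β cell replicate 1 or 4 (adjusted p up to 0.106 over all fits). At MΦ scores this low the fold of *Nqo1* between ECs and MΦs depends on the added constant, with a log2 difference of 2.92 at a pseudocount of 20, and it was 4.01 without MΦ replicate 3. *Gclc* (chr9:77602342-77642292, plus strand) scored 1535, 1516, 1180, and 912 in β cells, 2957, 2908, 3115, and 3171 in ECs, and 1761, 1923, 2121, and 1652 in MΦs. The groups did not overlap, with ECs highest and β cells lowest. β cells were 2.41-fold below ECs for *Gclc* (log2 -1.27, SE 0.17, adjusted p = 7.32e-05), and by -0.99, under the fold change of 2, with β cell replicates 3 and 4 left out. MΦs lay between them, with *Gclc* in ECs above MΦs by 0.71 (adjusted p = 0.00449) and in β cells below MΦs by -0.56 (adjusted p = 0.0141) on the log2 scale.

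**Figure D2:**
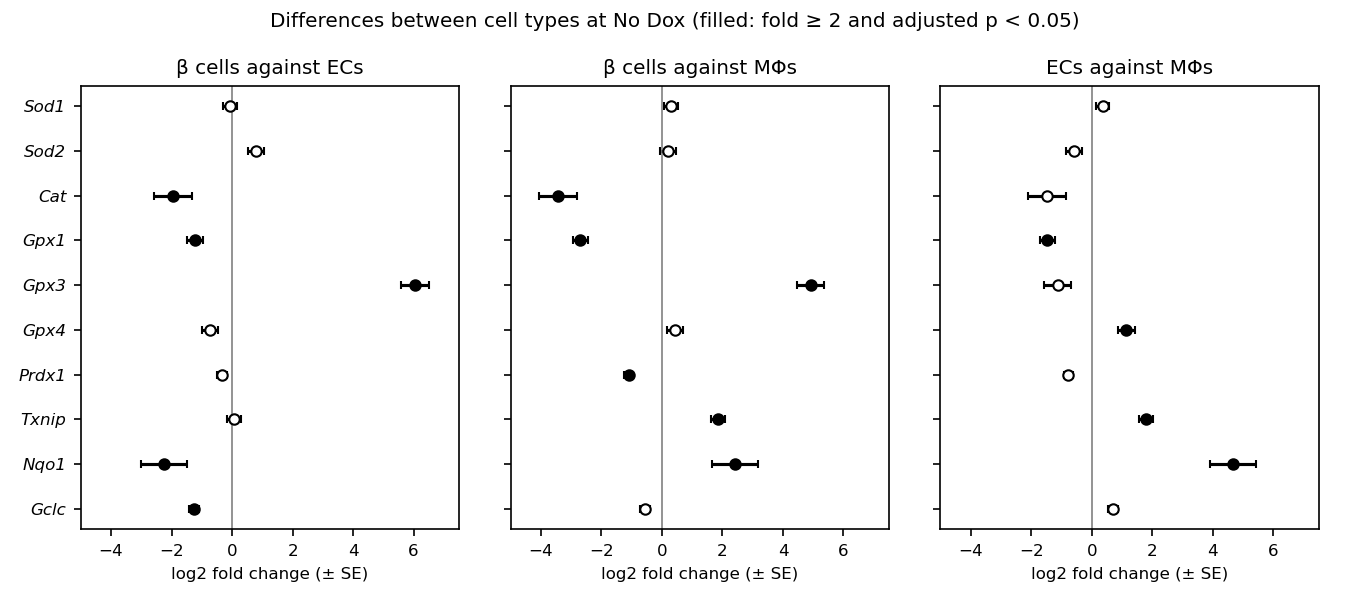
Log2 fold change (± SE, limma) of the 10 genes between cell types at No Dox, 4 samples each, in panels for β cells against ECs, β cells against MΦs, and ECs against MΦs. Filled points passed a fold change of 2 and an adjusted p under 0.05, with *Gpx3* at 6.04 and 4.92 on the β cell side and *Cat* and *Gpx1* on the other side in both panels that hold β cells.

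Of 30 further redox genes, 10 passed between β cells and ECs (6 higher and 4 lower in β cells), where 37.7% of all genes did, 11 between β cells and MΦs (4 higher, 7 lower), where 43.2% did, and 14 between ECs and MΦs (3 higher and 11 lower in ECs), where 33.5% did. Among them, *Slc7a11*, the cystine importer that feeds glutathione synthesis, was above ECs in β cells by 4.82 on the log2 scale (adjusted p = 7.14e-06) and below MΦs in ECs by -6.62. Of 7 oxidant-producing genes, 6 were lower in β cells than in MΦs. *Cybb*, the catalytic subunit of the phagocyte NADPH oxidase, scored from 70861 to 118888 in MΦs and from 7 to 20 in ECs.

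After 1 week of Dox, *Prdx1* and *Gpx4* rose in MΦs. Of the 10 genes, these 2 passed the test, both higher, where 1.61% of 15014 genes tested passed in that direction and 2.26% in either. In the deposited table, the column names of the 1wk Dox MΦs form a run apart from those of all other MΦs used. What that run stands for is not given, and it cannot be told apart from 1wk Dox. Groups did not overlap for 4 of the 10 genes (*Prdx1*, *Gpx4*, and *Nqo1* higher, *Txnip* lower), against 30.9% of all genes, with 2 samples of 1wk Dox MΦs. *Nqo1* reached the minimum mean score of 20 in MΦs only at 1wk Dox (mean 34.5, against 8.75 at No Dox and 14.5 at 1wk WD). Its place among the higher genes was thus partly set by the filter. The median log2 fold change of the 10 genes was 0.32, with 8 higher and 2 lower, against 0.03 over all genes tested.

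*Prdx1* scored 14055 and 10012 in 1wk Dox MΦs, against 3683 to 5827 at No Dox and 4717, 6728, 4851, and 7341 at 1wk WD. Both 1wk Dox samples were above all 8 other MΦs. The rise was 2.36-fold (log2 1.24, SE 0.23, adjusted p = 0.015), and from 1wk Dox to 1wk WD the log2 difference of *Prdx1* was -1.03 (SE 0.23, adjusted p = 0.147), which did not pass. Without 1wk Dox replicate 4 the rise of *Prdx1* was 1.00 (adjusted p = 0.408), and without replicate 5 it was 1.49 (adjusted p = 0.0539), in fits where the sample left is assumed to vary like those of the other groups. With only the 2 groups compared in the fit the adjusted p was 0.0613. Acinar sums were 825 and 2792 in the 1wk Dox MΦs and 18898 to 9849679 at No Dox, and without No Dox MΦ replicate 2, the highest of these, the rise was 1.29 for *Prdx1* (adjusted p = 0.0174) and 1.41 for *Gpx4* (adjusted p = 0.0279). Most markers of ECs and β cells had higher means in the 1wk Dox MΦs, and none passed the test. Of the 8 EC markers 7 were higher (median log2 fold change 1.88), with sums of 3519 and 2876 against 1376 to 1821 at No Dox. Of the 8 β cell markers 7 were higher (median 0.73), with sums of 7608 and 16269 against 1864 to 43850. The part of these cells in the rises in MΦs was not tested.

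*Gpx4* scored 656 and 712 in 1wk Dox MΦs, against 225, 370, 181, and 413 at No Dox and 430, 481, 460, and 416 at 1wk WD. The 3 time points did not overlap, with 1wk WD between the other two. The rise was 2.43-fold (log2 1.28, SE 0.32, adjusted p = 0.0427), the difference from 1wk Dox to 1wk WD was -0.61 (adjusted p = 0.58), and that from No Dox to 1wk WD was 0.67 (adjusted p = 0.224). Without No Dox MΦ replicate 3, which had the lowest *Gpx4* score, the rise was 1.07 (adjusted p = 0.0403). Taken like the GC difference, the median of genes with the shortest 20% of transcripts minus that with the longest was -0.38 and -0.251 in No Dox MΦ replicates 1 and 3. It was -0.031 and 0.027 in replicates 2 and 4, and 0.224 and 0.057 at 1wk Dox. The *Gpx4* transcript has 995 bases. That of *Sod1*, with 646, is shorter, and *Sod1* was not higher at 1wk Dox. The part of transcript length was not tested. The call for *Gpx4* was lost in 10 of 20 alternative fits, among them those without either 1wk Dox sample (1.34, adjusted p = 0.47, and 1.22, adjusted p = 0.244). Both *Prdx1* and *Gpx4* have near-identical processed copies elsewhere in the genome, and how reads that match several places were counted is not given in the sources used here.

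In β cells *Prdx1* scored 3074, 2700, 1923, 2880, and 2464 at 1wk Dox, then 1344, 1742, and 2304 at 1wk WD, and the difference between those 2 time points was -0.55 on the log2 scale (adjusted p = 0.675). In ECs it scored 3759 in the single 1wk Dox sample and 2817, 3054, 3457, 2661, and 2263 at 1wk WD, against 2486 to 3292 at No Dox. The difference between the responses of β cells and MΦs to Dox was -1.11 for *Prdx1* (SE 0.32, adjusted p = 0.523) and -0.88 for *Gpx4* (adjusted p = 0.863), and it passed for none of the 10 genes, nor for any of the 16821 genes tested (0%), while 2 of the 10 had an unadjusted p under 0.05 (5.6% of all genes). In β cells all 5 *Gpx4* scores at 1wk Dox (492, 483, 579, 416, and 530) were above all 4 at No Dox, by 0.40 (adjusted p = 0.769).

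*Nqo1* scored 32 and 37 in 1wk Dox MΦs, above all No Dox MΦs (9, 10, 1, and 15) and all 1wk WD MΦs (2, 12, 15, and 29). The log2 fold change was 2.20 (SE 1.16, adjusted p = 0.305), and at scores this near the floor it depends on the added 1. *Gclc* scored 2118 and 1980 at 1wk Dox, within the No Dox range. Its partner *Gclm*, the regulatory subunit of the same enzyme, scored 1131, 1468, 1672, and 1295 at No Dox, 3345 and 3083 after Dox, then 1134, 1396, 1058, and 1687 at 1wk WD. *Gclm* rose 2.33-fold (log2 1.22, SE 0.21, adjusted p = 0.0108) and at 1wk WD fell by 1.31 from that level (adjusted p = 0.0462), a fall whose call was lost in 12 of 20 alternative fits.

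Of the 30 further redox genes, 29 were tested in MΦs, of which 4 rose at 1wk Dox and 0 fell, with 23 means higher and 6 lower and a median log2 fold change of 0.51. Of all 15014 genes tested 1.61% rose, 7880 means were higher, and the median was 0.03. *Hmox1*, heme oxygenase 1, had the largest rise of the 4, from 2466, 3422, 2531, and 3270 to 15859 and 11589, or 4.69-fold (log2 2.23, SE 0.21, adjusted p = 0.000805). It then scored 4840, 6094, 4163, and 6101 at 1wk WD, a difference of -1.37 from 1wk Dox (adjusted p = 0.0359), whose call was lost in 10 of 20 alternative fits. *Srxn1*, sulfiredoxin, which repairs over-oxidized peroxiredoxins, rose by 1.18 (adjusted p = 0.0253), and *Glrx*, a glutaredoxin, by 1.35 (adjusted p = 0.0362). Among the 7 oxidant-producing genes 1 rose, *Cyba*, a membrane subunit of the NADPH oxidase, by 1.63 (adjusted p = 0.0155), and its call was lost in 6 of 20 alternative fits (adjusted p up to 0.404). Without 1wk Dox replicate 4, none of the 29 redox genes passed, and without replicate 5, 1 did, *Hmox1*, again with 1 sample left in the group. The log2 fold changes were then 2.00 and 2.46 for *Hmox1*, 1.16 and 1.28 for *Gclm*, 0.97 and 1.40 for *Srxn1*, and 1.09 and 1.61 for *Glrx*.

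**Figure D3:**
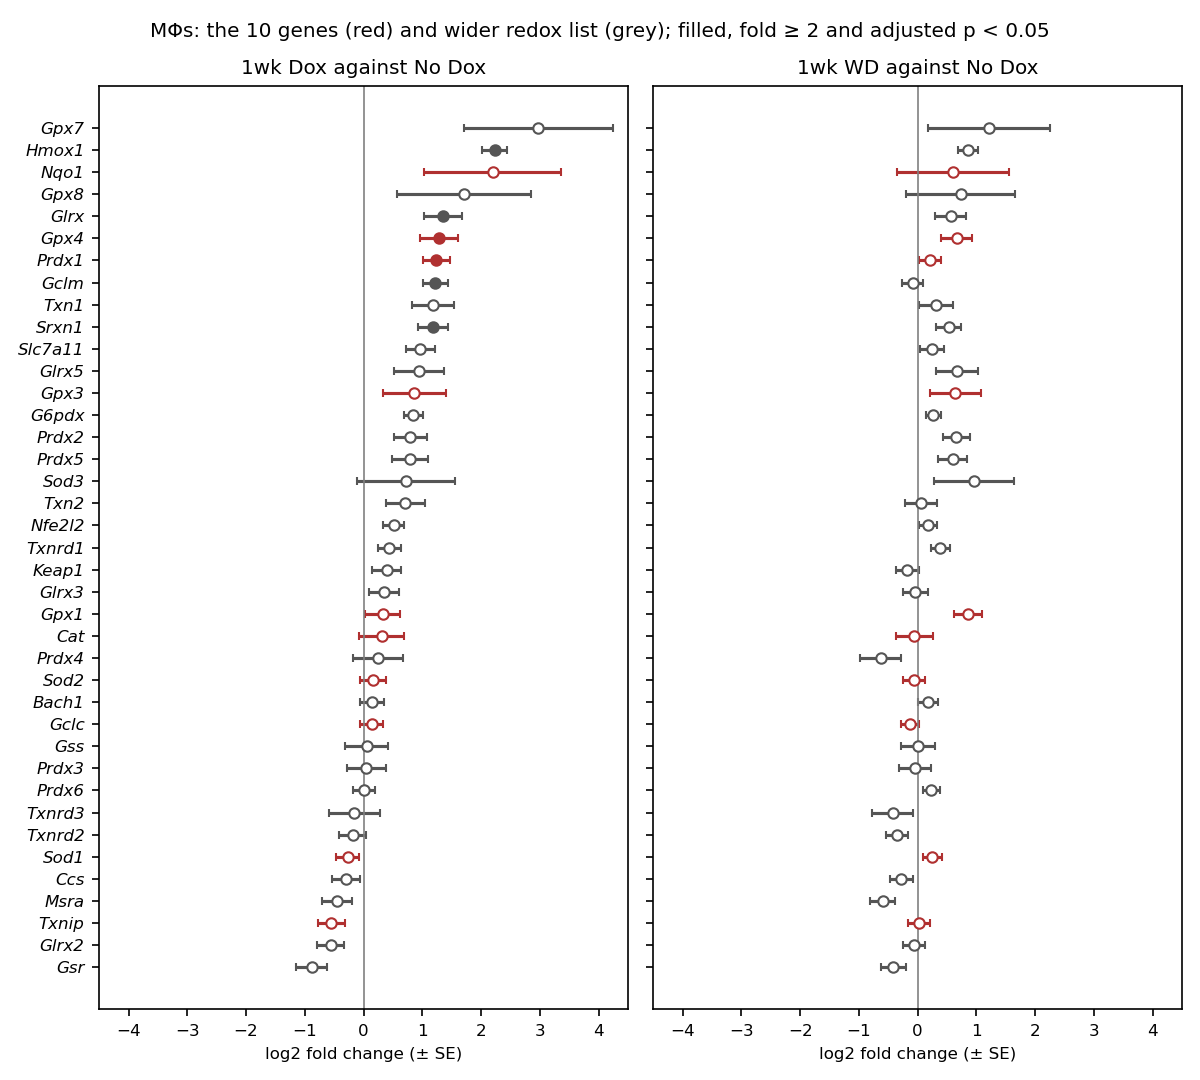
Log2 fold change (± SE, limma) in MΦs of the 10 genes (red) and the 29 further redox genes tested (grey), at 1wk Dox (2 samples) and 1wk WD (4 samples) against No Dox (4 samples), with filled points past a fold change of 2 and an adjusted p under 0.05. At 1wk Dox the filled points are *Hmox1*, *Glrx*, *Gpx4*, *Prdx1*, *Gclm*, and *Srxn1*, and at 1wk WD there are none.

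The promoters of these genes were searched for the letters of the antioxidant response element core, TGACNNNGC, on both strands of the windows given by RefSeq (GRCm38.p6), which reach from 250 bases before to 50 after each start. A match was found in 12.4% of all 32851 windows. Among the 10 genes 9 had a window (none for *Gclc*) and 2, *Prdx1* and *Sod1*, held a match, and among the 30 further genes 24 had a window (none for *Hmox1*) and 5 held one (*Nfe2l2*, *Srxn1*, *Gclm*, *Txnrd1*, and *G6pdx*). *Prdx1* and *Gclm*, both higher in 1wk Dox MΦs, are shown with *Sod1*, which was not, all on the plus strand and with the matched letters in capitals. The *Prdx1* stretch, the 250 bases before the start, is chr4:116685349-116685598, the *Gclm* stretch chr3:122245403-122245451, and the *Sod1* stretch chr16:90220686-90220734.
Prdx1: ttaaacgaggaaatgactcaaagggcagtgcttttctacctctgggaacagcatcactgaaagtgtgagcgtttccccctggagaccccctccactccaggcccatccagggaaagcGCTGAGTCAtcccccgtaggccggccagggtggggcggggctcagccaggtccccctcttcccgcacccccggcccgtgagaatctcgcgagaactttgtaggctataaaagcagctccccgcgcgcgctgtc
Gclm: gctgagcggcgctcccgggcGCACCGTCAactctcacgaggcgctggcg
Sod1: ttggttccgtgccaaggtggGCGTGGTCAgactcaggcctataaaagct
All 3 matches lie on the reverse strand as printed. That of *Prdx1* shares 7 bases with a match to TGACTCA, the AP-1 letters, which occur in 5.2% of all windows. A second match to the AP-1 letters, not in capitals, lies on the plus strand of the *Prdx1* stretch, 237 to 231 bases before the start. A match describes letters only and shows no binding.

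*Txnip* had the largest difference of the 10 genes in β cells at 1wk Dox, closely followed by *Nqo1* (log2 1.35). *Txnip* scored 13391, 13498, 12735, 8316, and 22333, against 42239, 40857, 33577, and 30855 at No Dox. All 5 samples at 1wk Dox were below all 4 at No Dox, 2.73-fold on average (log2 -1.45, SE 0.38), but the adjusted p was 0.372. Without No Dox replicates 3 and 4 the log2 difference of *Txnip* was -1.64 (adjusted p = 0.068), and without replicates 1 and 2 it was -1.27 (adjusted p = 0.585). In the latter fit *Nqo1* differed more, by 1.80. None of the 10 genes passed the test in this comparison, where 0.0122% of 16346 genes did, and 1 of the 10 had an unadjusted p under 0.05 (6.99% of all genes). Groups did not overlap for 2 of the 10 genes, *Txnip* lower and *Gpx4* higher, against 2.55% of all genes.

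At 1wk WD, *Txnip* in β cells scored 13632, 23240, and 52466, from the level of 1wk Dox to above every No Dox sample. Summed scores of the 8 β cell markers in these samples were 573628, 1784796, and 10479519, in the same order. In the No Dox samples the sums were 8299116, 5212692, 1557305, and 581741, again in the order of *Txnip*, and at 1wk Dox they were 1311835, 2676673, 1477206, 434552, and 2532257. The difference of *Txnip* at 1wk WD was 0.93 from 1wk Dox (adjusted p = 0.766) and -0.52 from No Dox (adjusted p = 0.711). With 1 replicate left out these ran from 0.41 to 1.38 and from -1.04 to -0.07, and with quantile normalization the latter turned to 0.0762. Stromal sums, with all 6 markers above the lowest score, ran from 100 to 163248 at No Dox, from 38962 to 134200 at 1wk Dox, and from 11070 to 201529 at 1wk WD, and acinar sums from 26027 to 10178578, from 153 to 18327, and from 247 to 502150 at the same time points. EC marker sums ran from 1435 to 6443 at No Dox, from 1207 to 45503 at 1wk Dox, with 8 of 8 markers higher (median log2 fold change 2.19), and from 3503 to 14864 at 1wk WD. MΦ marker sums ran from 606 to 7147, from 1584 to 6274, and from 6750 to 9377, and after withdrawal 7 of 8 were above No Dox (median 2.01), but no EC or MΦ marker passed the test. The part of β cell content and of other cells in these *Txnip* values was not tested.

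The same gene was low at 1wk Dox in the other cell types. The single 1wk Dox EC sample scored 14323, against 29703, 34193, 44759, and 32523 in No Dox ECs, or 2.43-fold lower, and 24669, 30853, 34186, 23679, and 32712 at 1wk WD. *Txnip* was the 1 gene of the 10 past a fold change of 2 in that sample, where 10.7% of all genes were, and with 1 sample there is no test. In MΦs *Txnip* scored 7004 and 6788 at 1wk Dox, below 7574, 13133, 7993, and 13026 at No Dox and below 11157, 8721, 11373, and 10111 at 1wk WD. The differences of *Txnip* were -0.55 from No Dox (SE 0.23, adjusted p = 0.189) and 0.58 from 1wk Dox to 1wk WD (adjusted p = 0.42). The difference between β cells and MΦs in the response to Dox was -0.90 (SE 0.50, adjusted p = 0.93). Column names of the 1wk Dox EC and MΦ samples form a run apart from those of all other ECs and MΦs used. In these 2 cell types that run cannot be told apart from 1wk Dox.

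*Arrdc4*, the α-arrestin gene that is regulated much like *Txnip* by glucose, had similar values. In β cells it scored 2006, 2663, 1504, and 1158 at No Dox and 540, 696, 564, 491, and 952 at 1wk Dox, without overlap (log2 -1.47, SE 0.38, adjusted p = 0.369). With No Dox replicates 3 and 4 left out the log2 difference of *Arrdc4* was -1.87 (adjusted p = 0.0291), when 7.36% of all genes passed, and with replicates 1 and 2 left out it was -1.07 (adjusted p = 0.646), when 0.487% did. The 1wk Dox EC sample scored 453 for *Arrdc4*, against 855 to 1142 at No Dox, and 1wk Dox MΦs scored 916 and 1021, below all No Dox MΦs (1111 to 1948, log2 -0.72, adjusted p = 0.087).

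**Figure D4:**
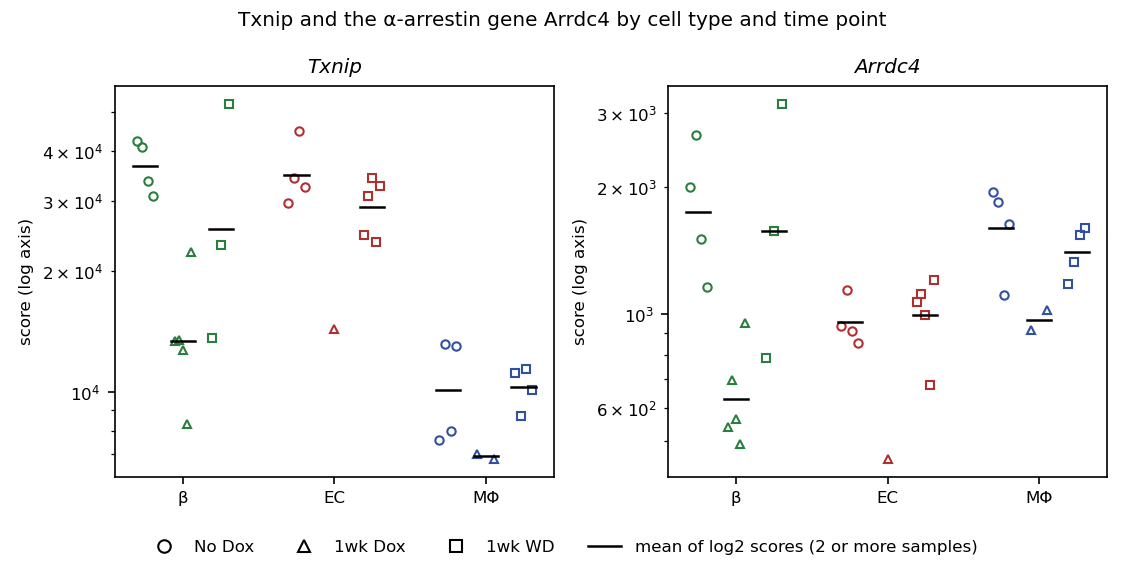
Score (log axis) of *Txnip* and *Arrdc4* by cell type, with No Dox as circles, 1wk Dox as triangles, 1wk WD as squares, and the mean of log2 scores as a bar. In each cell type the 1wk Dox samples of both genes lie below all No Dox samples, a difference that did not pass the test in β cells or MΦs and has no test in the single EC sample.

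The *Txnip* promoter holds the letters of a carbohydrate response element, 2 copies of CACGNG on 1 strand with 5 bases between them, 85 to 69 bases before the start, and it is shown because *Txnip* was lower at 1wk Dox in all 3 cell types. These letters occur in 16 of the 32851 windows (0.0487%) on either strand, and among the 10 genes only in *Txnip*. They were not found in the windows of 4 further α-arrestin genes, *Arrdc4* among them. Only this narrow pattern was searched, so a window without it may still hold another form of the element. The 250 bases before the start, on the plus strand, are chr3:96557707-96557956 (GRCm38.p6, RefSeq), with the match in capitals.
Txnip: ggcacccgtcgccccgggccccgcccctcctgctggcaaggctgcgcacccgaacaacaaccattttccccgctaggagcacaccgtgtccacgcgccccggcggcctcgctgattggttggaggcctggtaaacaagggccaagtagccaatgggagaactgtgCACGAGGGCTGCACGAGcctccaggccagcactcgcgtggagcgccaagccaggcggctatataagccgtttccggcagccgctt
The match is a description of letters. The *Txnip* locus in mm9 is overlapped on the opposite strand by the lincRNA *Gm15441*, and whether reads were counted by strand is not given in the sources used here.

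*Gpx1* at 1wk WD lay on opposite sides of its No Dox level in β cells and MΦs, and passed the test in neither. In β cells it scored 1018, 1425, and 1382, below all No Dox samples (1473 to 2653) and all 1wk Dox samples (2428, 2952, 1594, 2561, and 2153). The log2 differences were -0.62 (SE 0.26, adjusted p = 0.601) and -0.86 (SE 0.24, adjusted p = 0.643), and neither passed. *Gpx1* was the 1 gene of the 10 without overlap in either comparison, against 6.44% and 4.97% of all genes, and no gene at all passed the test in them (0%), although 1 and 4 of the 10 had an unadjusted p under 0.05 (8.17% and 6.31% of all genes). In MΦs *Gpx1* scored 17136, 29062, 23728, and 22476 at 1wk WD against 11825, 12346, 8295, and 20344 at No Dox, with replicate 4 of No Dox within the 1wk WD range. That difference was 0.86 (SE 0.24, adjusted p = 0.0949). The *Gpx1* transcript has 847 bases. Short minus long transcripts, measured as above, came to -0.319, -0.176, and 0.133 in the 1wk WD β cell samples. At No Dox the β cell values were 0.107, -0.044, 0.118, and -0.023, and at 1wk Dox they ran from -0.176 to 0.206. The part of transcript length in the *Gpx1* values was not tested.

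In MΦs at 1wk WD none of the 10 genes passed against No Dox, where 0.626% of all genes did, 2 had an unadjusted p under 0.05 (17.3% of all genes), and groups did not overlap for 1 of the 10, *Gpx4*, against 9.24%. Against 1wk Dox, none passed, where 0.0866% of all genes did, 3 had an unadjusted p under 0.05 (9.7% of all genes), and groups did not overlap for 6 of the 10 (*Txnip* and *Sod1* higher, *Prdx1*, *Gpx4*, *Gpx3*, and *Nqo1* lower), against 30% of all genes. Of these, *Nqo1* entered the test only through its 1wk Dox mean, which alone reached the filter on low scores. *Sod1* scored 1751 and 1634 in 1wk Dox MΦs, then 2796, 2813, 2316, and 1890 at 1wk WD (log2 0.52, adjusted p = 0.4). Of the 29 further redox genes 2, *Hmox1* and *Gclm*, fell from 1wk Dox to 1wk WD.

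In ECs at 1wk WD none of the 10 genes passed against No Dox, where 1.76% of 14167 genes did, and none was free of overlap, against 10.7% of all genes. At an unadjusted p under 0.05 there were 2 of the 10, *Gpx1* and *Sod1*, against 21.9% of all genes. *Gpx1* scored 3796, 4577, 1645, 1285, and 3153 at 1wk WD, and 4 of the 5 samples lay below all No Dox ECs. *Gpx4* scored 629, 634, 264, 200, and 477, and *Sod1* 2281, 2346, 1448, 1087, and 2016. *Cat* scored 3745, 3527, 11374, 9142, and 3948.

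The extreme values of these genes all came from replicates 3 and 4, low for *Gpx1*, *Gpx4*, and *Sod1* and high for *Cat*. These were the 2 ECs in which GC-rich transcripts were low. The transcripts of *Gpx4*, *Gpx1*, and *Sod1* were 60.2%, 56.2%, and 54.0% G and C, and that of *Cat* 48.7%. These 4 genes were chosen after their values were seen, and the other 6 did not all follow G and C content. *Gpx3*, at 56.0% G and C, scored 294 in replicate 3, the highest of the 5 samples, and 214 in replicate 4. The transcripts of *Prdx1*, *Sod2*, *Nqo1*, and *Gclc* were 42.3% to 47.7% G and C, and that of *Txnip* 48.3%. Replicate 3 had the highest scores of the 5 for *Nqo1* (234), *Prdx1* (3457), *Gclc* (3319), and *Txnip* (34186), and scored 1066 for *Sod2*. Replicate 4 had the lowest scores for *Nqo1* (92) and *Txnip* (23679), and scored 2661 for *Prdx1*, 2963 for *Gclc*, and 847 for *Sod2*, within the range of the other samples. With all 5 samples the log2 differences from No Dox were -0.81 for *Gpx1* (adjusted p = 0.169), -0.64 for *Gpx4* (0.255), -0.57 for *Sod1* (0.151), and 0.69 for *Cat* (0.242), and without replicates 3 and 4 they were -0.26, -0.12, -0.24, and 0.11. In No Dox MΦ replicate 3, in which GC-rich transcripts were also low, *Cat* was highest (22086) and *Gpx1* (8295) and *Gpx4* (181) lowest of the 10 MΦs. In No Dox β cell replicate 2, where they were low as well, *Cat* scored 422, below 2 of the other 3 No Dox samples, *Gpx1* was the lowest of the 4 (1473), *Gpx4* the highest (411), and *Sod1* scored 2535, between the others. The part of GC content in these values was not tested.

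**Figure D5:**
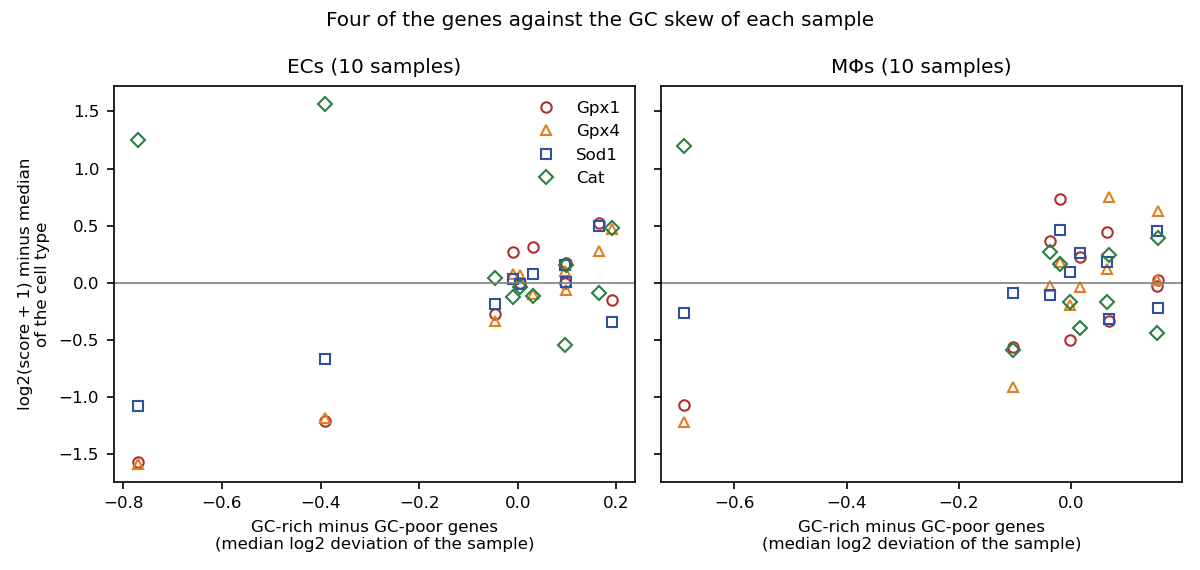
Log2(score + 1) of *Gpx1*, *Gpx4*, *Sod1*, and *Cat* in each sample, as the deviation from the median of the cell type, against the median deviation of GC-rich minus GC-poor genes, in 10 ECs and 10 MΦs. The 2 ECs at -0.77 and -0.39 and the MΦ at -0.69 have the highest *Cat* values and the lowest *Gpx1* and *Gpx4* values of their panels.

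The difference between the responses of MΦs and ECs at 1wk WD was 1.67 on the log2 scale for *Gpx1* (SE 0.46, adjusted p = 0.0678), 1.31 for *Gpx4* (adjusted p = 0.127), and 0.82 for *Sod1* (adjusted p = 0.138). It passed for none of the 10 genes, where 1.4% of all genes passed, and 3 of the 10 had an unadjusted p under 0.05 (21.2% of all genes). Without EC replicates 3 and 4 it was 1.11 for *Gpx1* (adjusted p = 0.135), 0.78 for *Gpx4*, and 0.49 for *Sod1*.

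*Gpx3* in β cells scored 8174, 12712, 10857, 9183, and 15483 at 1wk Dox, then 13123, 18811, and 40649 at 1wk WD, a log2 difference of 0.97 (SE 0.35, adjusted p = 0.675). The highest value belonged to 1wk WD replicate 3, the sample with the highest β cell marker sum, as for *Txnip*. The column name of that sample lies in the same run as those of the 1wk Dox ECs and MΦs, apart from the other β cell samples. *Cat* in β cells scored from 679 to 2160 at 1wk Dox and from 681 to 2015 at 1wk WD, both within the No Dox range. *Nqo1* scored 66, 75, 133, 132, and 142 in β cells at 1wk Dox, against 24, 126, 56, and 15 at No Dox (log2 1.35, SE 0.68, adjusted p = 0.738). *Sod2* and *Gclc* passed no comparison of time points, and ranged from 950 to 2221 and from 912 to 2377 over the 12 β cell samples.

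None of the 30 further redox genes passed in β cells in the 3 comparisons of time points, or in ECs at 1wk WD, although in β cells 5 of them had an unadjusted p under 0.05 between No Dox and 1wk Dox (6.99% of all genes), 1 between No Dox and 1wk WD (8.17%), and 4 between 1wk Dox and 1wk WD (6.31%), and in ECs 2 of the 29 tested did (21.9%). With No Dox β cell replicates 3 and 4 left out, 4 of the 30 passed at 1wk Dox and 2 at 1wk WD, when 7.36% and 8.74% of all genes did. Of the oxidant-producing genes, *Nox4*, which releases hydrogen peroxide, rose in ECs at 1wk WD, from 81, 80, 67, and 117 to 455, 300, 224, 571, and 303. The groups did not overlap, the rise was 4.11-fold (log2 2.04, SE 0.29, adjusted p = 0.00387, or 0.0502 without the filter on low scores), and the single 1wk Dox EC sample scored 615. Without EC replicates 3 and 4 the rise of *Nox4* was 2.02 (adjusted p = 0.00414). Stromal markers were higher in the same comparison, 6 of 6, of which *Col3a1* and *Col1a1* passed (median log2 fold change 1.32). Stromal sums were 615 to 1701 in No Dox ECs and 5917, 2715, 1212, 5396, and 2892 at 1wk WD, with *Nox4* highest in the 2 samples with the highest sums and lowest in that with the lowest. The single 1wk Dox EC sample, with the highest *Nox4* score, had a stromal sum of 1247. All 6 acinar markers fell in the same comparison (median log2 fold change -6.52), with acinar sums of 54408 to 1430992 in No Dox ECs, 649 to 50925 at 1wk WD, and 201 in the single 1wk Dox EC sample. The part of stromal and acinar cells in the *Nox4* values and in the other EC values was not tested.

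Over all 32 samples, the gene most like each of the 10 by Pearson correlation of log2(score + 1), among 16967 others, was *Odz3* or *Epdr1* for *Gpx3* (0.976 each), *Mapkapk2* for *Gpx1* (0.956), *Slc26a11* for *Cat* (0.953), *Rpl39* for *Prdx1* (0.935), *2310044G17Rik* for *Nqo1* (0.909), *Nmi* for *Gclc* (0.881), *Trappc9* for *Txnip* (0.867), *Nars* for *Sod2* (0.855), *2410018M08Rik* for *Sod1* (0.854), and *Adrm1* for *Gpx4* (0.843). These values are a description over samples that fall into 3 cell types.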

How the data were processed

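RNA of β cells, ECs, and MΦs sorted by flow cytometry was amplified and sequenced by the authors, who aligned the reads (mm9 and TopHat2 2.0 per the submitters' processing notes) and normalized expression in Avadis NGS (TMM). The values deposited are scores, whole numbers from 1 to 6456823. They cannot be turned back into reads, so depth is unknown. Sums per sample ran from 23465985 to 53441769. Strand use in counting is not given in the sources used here. The table has 38 sample columns, of which 32 match the samples analysed and 6, of other 1wk Dox ECs and MΦs, were not used.

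The limma package (3.58.1, R 4.3.3; empirical Bayes with a trend) was run on log2(score + 1) for genes whose mean score reached 20 in a fitted group. All 3 time points entered the β cell fit and the MΦ fit, No Dox and 1wk WD the EC fit, and cell types were compared at No Dox. Benjamini-Hochberg adjustment ran over all genes tested. The z-score test of the study could not be repeated from its description. P-values rest on a spread between samples that is estimated over all groups of a fit and adjusted by empirical Bayes. Samples were pools of islets from several mice, so this spread is between pools and not between animals. On simulated data with 200 changed genes the fit recovered 63% (β cells, 1wk Dox), 85% (MΦs, 1wk Dox), and 91.5% (ECs, 1wk WD) of them, with 7, 8, and 4 false calls. Changes simulated at 8-fold were recovered at 73%, 97%, and 100%. These shares hold for the simulated fold sizes and spread. They do not give the share that would be found of changes of the sizes described here.

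The 10 genes and all lists were chosen with earlier results of these data known. The text names the 10 genes, further redox and oxidant-producing genes that passed (at most 5 per comparison), the α-arrestin *Arrdc4*, markers where a value stands beside them, and the genes most alike. Other names (*Gpx2*, *Sod3*, *Gpx7*, *Txnrd2*, and *Prdx4* in alternatives) were chosen after their values were seen. Alternatives were a pseudocount of 20, no filter or a minimum of 200, quantile normalization, median-of-ratios scaling, no trend, sample weights, any fold change, only the 2 groups compared, the single EC sample added, the replicate number as a block, and each replicate left out. Leaving out pairs of samples that stood apart was added after seeing the data. Coordinates of 10 of 10 genes equal those of GENCODE M1 (mm9), and all 10 are protein-coding. GC content and length came from transcripts of genes whose mean score reached 200 in the cell type. Python 3.11.15, pandas 2.3.3, numpy 2.4.6, and matplotlib 3.10.9 were used for tables and figures.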

Additional observations from a re-analysis of the deposited data

Results flagged for a closer look

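In ECs at 1wk WD, *Gpx3* scored 294 in replicate 3, against 192 to 214 in the other 4 samples, a gap of 0.746 of the range of the group on the log2(score + 1) scale, above the limit of 0.71 for 5 samples. Of the 102 groups of 4 or 5 samples checked this was the only one, and chance gives about 1 in 20. The same sample had low GC-rich transcripts, and the part of that in the value was not tested.

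*Nox4*, an NADPH oxidase that releases hydrogen peroxide, responded differently in MΦs and ECs at 1wk WD. It scored 300, 164, 86, and 61 in No Dox MΦs and 26, 119, 82, and 82 at 1wk WD, while in ECs it rose. The difference of the responses was -2.94 on the log2 scale (SE 0.68, limma adjusted p = 0.0339). The call was lost in 11 of 27 alternative fits, and without EC 1wk WD replicates 3 and 4, left out after seeing the data, it was -2.92 (adjusted p = 0.0758).

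For *Gpx1* at 1wk WD, all 3 β cell samples lay below the No Dox mean of β cells, by -0.62 on average, and all 4 MΦ samples above that of MΦs, by 0.86. The difference of 1.48 on the log2 scale was not tested.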

How the results depend on the processing

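Scores carry no depth, so the precision of low scores such as those of *Nqo1* is unknown, and 1wk Dox holds 1 EC and 2 MΦ samples. Column names of these samples form a run apart from those of the other ECs and MΦs used. In these cell types the time point and that run cannot be told apart. The alternatives that leave out 2 samples at a time were chosen after seeing the data, and the cause of the changes given below was not tested.

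Of the counts of genes passed, 395 alternative values stayed on the same side or within 1.5 times of the count reported, 8 were higher, and 33 were lower. In MΦs at 1wk Dox, the 2 of the 10 genes that passed (*Prdx1* and *Gpx4*) became 0 without a filter on low scores, without a trend of the spread, and with only the 2 groups compared, and 0 to 2 with 1 replicate left out (0 without 1wk Dox replicate 4 or 5, and 1 without No Dox replicate 1 or 1wk WD replicate 2, 3, or 4). The 4 further redox genes became 2 without the filter, 1 without a trend, and 1 with only the 2 groups compared, and ranged from 0 to 5 with 1 replicate left out. In MΦs from 1wk Dox to 1wk WD, 1 of the 10 genes, *Prdx1*, passed with sample weights in place of 0, and the 2 further redox genes became 1 with a pseudocount of 20, 1 with median-of-ratios scaling, 0 without the filter, and 0 without a trend, and ranged from 0 to 2 with 1 replicate left out. In MΦs from No Dox to 1wk WD, 1 of the 10 genes, *Gpx1*, passed without No Dox replicate 4 (0 to 1 over the replicates left out), and 1 further redox gene passed at any fold change. Between β cells and ECs at No Dox, the 5 genes became 3 without the filter and ranged from 3 to 5 with 1 replicate left out (3 without β cell replicate 1 or EC replicate 2), and for the difference between MΦs and ECs at 1wk WD, 0 became 0 to 1 (*Gpx1*, without No Dox MΦ replicate 4 or 1wk WD EC replicate 2). In β cells, leaving out No Dox replicates 3 and 4 gave 4 further redox genes at 1wk Dox (*Sod3* 6.26, *Gpx8* 5.73, and *Gpx7* 3.11 higher and *Txnrd2* -1.52 lower, log2) and 2 at 1wk WD (*Sod3* and *Gpx8*), and leaving out replicates 1 and 2 gave 1 at 1wk Dox (*Prdx4*, -1.78). The difference of *Txnip* in β cells from No Dox to 1wk WD, -0.52, turned to 0.0762 with quantile normalization. Over all genes between β cells and ECs, quantile normalization moved the median log2 difference from 0.07 to -0.17 and the share of passing genes that were higher in β cells from 56.2% to 44.6%. Between β cells and MΦs it moved the median from 0.12 to -0.05.

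The labels do not say whether equal replicate numbers pair the samples, and correlations cannot decide it. Those with the same number deviated from their group means with correlations from -0.48 to 0.384, and not every sample correlated best with its own number. With the replicate number as a block, the 2 genes in MΦs at 1wk Dox became 0, the 4 further redox genes 1, the 2 that fell from 1wk Dox to 1wk WD 0, and the 4 genes between ECs and MΦs at No Dox 5. The block left the other counts of the 10 genes, and those of the further redox genes between time points, as they were. The calls of *Cyba* in MΦs at 1wk Dox (adjusted p = 0.249), of the difference of *Nox4* between MΦs and ECs at 1wk WD (0.0967), and of *Gpx8* between β cells and ECs (0.0568) were lost.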

Other observations

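Between cell types, 2 further groups of values stood out from those of the 10 genes. *Gpx8*, a glutathione peroxidase of the endoplasmic reticulum, was above MΦs by 6.70 in No Dox ECs and below ECs by -3.75 in β cells on the log2 scale, and *Gpx2*, the gastrointestinal form, was above ECs by 3.29 in β cells. No Dox MΦs scored 1 to 19 for *Gpx8* and No Dox ECs 2 to 7 for *Gpx2*, and with a pseudocount of 20 the differences were 4.93 for *Gpx8* between ECs and MΦs and 1.49 for *Gpx2*. The call of *Gpx8* between β cells and ECs was lost in 13 of 23 alternative fits, among them those without any 1 of the 4 ECs or without β cell replicate 1 (-2.88, limma adjusted p = 0.131) or 2 (-2.59, adjusted p = 0.127). With No Dox β cell replicates 1 and 2 left out, after seeing the data, the difference of *Gpx8* between β cells and ECs was -0.71 (limma adjusted p = 0.526), and with replicates 3 and 4 left out it was -6.79. The phagocyte NADPH oxidase genes *Cybb*, *Ncf4*, and *Ncf1* were below MΦs in ECs by -12.83, -10.15, and -7.03. No Dox ECs scored 7 to 20 for *Cybb*, 1 to 7 for *Ncf4*, and 54 to 106 for *Ncf1*, so these values depend on the added 1, and with a pseudocount of 20 they were -11.46, -7.72, and -6.72.

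After *Mapkapk2*, the genes whose pattern over the 32 samples was closest to *Gpx1* were *Rps9* (Pearson r = 0.95) and *Ctsa* (0.946).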
